A study of Mus musculus with 24 samples.

Results

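The expression of titin-linked stretch sensors and Xin proteins was examined in the left ventricle of mice made hypertensive with angiotensin II (ANG II). The genes were Ankrd1, Ankrd2, Ankrd23, Csrp3, Tcap, Ttn, Fhl1, Fhl2, Xirp1 and Xirp2. They were chosen by symbol, and all 10 were found among the 14912 genes of the expression table. RNA of the left ventricle of male wild-type (WT) C57BL/6J mice was sequenced after 7 days of infusion by a subcutaneous osmotic mini-pump. The hypertensive-LVH group (left ventricular hypertrophy, 12 mice) received ANG II, the pressor hormone of the renin-angiotensin system, at 1500 ng/kg/min. The control group (12 mice) received saline. No allele, transgene or Cre was involved, and the hearts of both groups had been flushed with saline. The age of the mice was not given in the sources used here.

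Titin is the giant protein that spans each sarcomere from the Z-disc to the M-band and acts as the molecular spring of the cardiomyocyte. Proteins bound along titin change place or abundance when the muscle is stretched. They include the muscle ankyrin repeat proteins on its I-band spring (Ankrd1, Ankrd2, Ankrd23), the LIM-domain proteins (Csrp3, Fhl1, Fhl2) and the Z-disc cap telethonin (Tcap). The Xin proteins (Xirp1, Xirp2) bind actin and sit at the intercalated discs and other attachment sites of the myofibrils. Ankrd1 is a widely used marker of cardiac overload.

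The values are FPKM as the authors deposited them, a measure of fragment number scaled by transcript length and by the mapped fragments of the sample. They had apparently been adjusted gene by gene within 4 sets of mice, samples 1 to 3, 4 to 6, 7 to 9 and 10 to 12 of each group, and 2741 values of the whole table were negative. Of these, 2 were values of members, both of Ankrd2 in control samples. Summed over all genes, control samples held 482319 to 567727 FPKM and hypertensive-LVH samples 460715 to 515185 FPKM, and the number of fragments behind these values is not known. The cardiac troponin T gene Tnnt2 reached at least 4904 FPKM in every sample. The summed FPKM of 20 cardiomyocyte markers was lower in the hypertensive-LVH group (62684 to 91909, median 76469) than in the control group (80723 to 109900, median 98821). It overlapped between the groups. Of the 20 markers, 10 fell past the test described below, against 12.6% of all genes tested, and 2 rose, against 20.9%. In bulk tissue, fewer cells of a type and less RNA per cell cannot be told apart.

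Promoter sequence is shown for the members that rose and for the Fhl pair, to set the letters upstream of these genes beside their response. Of the 10 members, 8 had 1 or more RefSeq starts (12 in all, build GRCm38.p6), and the 250 bases before each start were searched on both strands for 6 motifs. These were CATTCC (the M-CAT motif of TEAD factors), TATAAA (the TATA box), GATAA (GATA factors), TGANTCA (AP-1), the CArG box (serum response factor) and the MEF2 site. The sequence before the start of Ankrd1 held CATTCC in 2 places, both on the opposite strand and therefore read as GGAATG. The second start of Ankrd23 held it once, and no other member held it. Among all 32851 mouse windows of this length, 12.6% held CATTCC. In the stretches below the motif is in capitals, the strand is that of the gene, and the first 2 stretches are of Ankrd1 and the third is of Ankrd23.
Ankrd1 chr19:36120037-36120066: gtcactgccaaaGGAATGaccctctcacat
Ankrd1 chr19:36119950-36119979: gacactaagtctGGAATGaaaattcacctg
Ankrd23 chr1:36535842-36535871: cccagtgggccaCATTCCcagaacggtatt

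The Xirp2 window is printed whole because it held an AP-1 motif (TGANTCA, in 6.75% of all windows) and a MEF2 site (2.92% of all windows) and shared no base with an annotated exon of the gene. It ends at the base before the start of Xirp2 on the plus strand, and the capitals mark the AP-1 motif and then the MEF2 site.
Xirp2 chr2:67445752-67446001: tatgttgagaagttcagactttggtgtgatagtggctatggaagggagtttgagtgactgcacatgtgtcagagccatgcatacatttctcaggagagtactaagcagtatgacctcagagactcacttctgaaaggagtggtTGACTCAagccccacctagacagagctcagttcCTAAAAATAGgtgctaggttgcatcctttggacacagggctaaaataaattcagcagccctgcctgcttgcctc

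A CArG box, present in 1.47% of all windows, lay before 1 start of Fhl1 and before both starts of Fhl2, of which Fhl1 rose and Fhl2 did not pass the test described below. The Fhl1 match and the match nearer to a start of Fhl2 are shown with the box in capitals.
Fhl1 chrX:56779571-56779600: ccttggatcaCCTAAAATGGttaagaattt
Fhl2 chr1:43163973-43164002: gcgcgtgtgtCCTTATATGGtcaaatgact

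Ankrd2 had a TATAAA (12.4% of all windows) 29 to 24 bases before its start, shown here in capitals, as its single match.
Ankrd2 chr19:42035986-42036015: ggtgcttgggccTATAAAgaccccatgccc
The other matches were GATAA (22.6% of all windows) in Ankrd1, Ankrd23 and Fhl2, TATAAA in Fhl1 and Fhl2, and a MEF2 site in Ttn and Fhl2. In Fhl2 the MEF2 site and TATAAA shared bases. Neither window of Csrp3 held any of the 6 motifs. Tcap and Xirp1 had no entry. The whole Ankrd1 window lay inside an exon of another annotated Ankrd1 transcript. All 250 bases of the first Ankrd23 window, which held its GATAA, also lay in annotated exons of that gene. So did 223 bases of the first Fhl2 window, 87 of the Fhl1 window with the CArG box and 27 of the Ankrd2 window. The TATAAA of Ankrd2 lies across the GENCODE start of the gene at 42036000.

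limma was fitted to log2(FPKM + 1), p-values were adjusted by Benjamini-Hochberg over the 14026 genes with a mean of at least 0.1, and a gene is said to have risen or fallen when its adjusted p was under 0.05. All 10 members were tested. Ankrd1, Ankrd2, Ankrd23, Fhl1 and Xirp2 rose, 5 of 10, against 20.9% of all genes tested. None of the 10 fell in this limma fit, against 12.6% of all genes. A rank-sum test gave 5 members higher and 0 lower, against 2476 and 1649 of the 14026 genes. At an unadjusted p under 0.05, 6 members were higher and 1 was lower, and the share of all genes at that threshold was not computed. With the additional criterion of an absolute log2 fold change over 0.5, after the study's threshold for DEGs, whose logarithm base is not given and was taken here as 2, 4 members were higher (Ankrd1, Ankrd2, Ankrd23 and Fhl1), against 4.52% of all genes. The median log2 fold change was 0.39 over the members and 0.05 over all genes tested. Ankrd1 was among the genes that the study selected on these samples, so its direction here is not independent evidence.

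**Figure D1:**
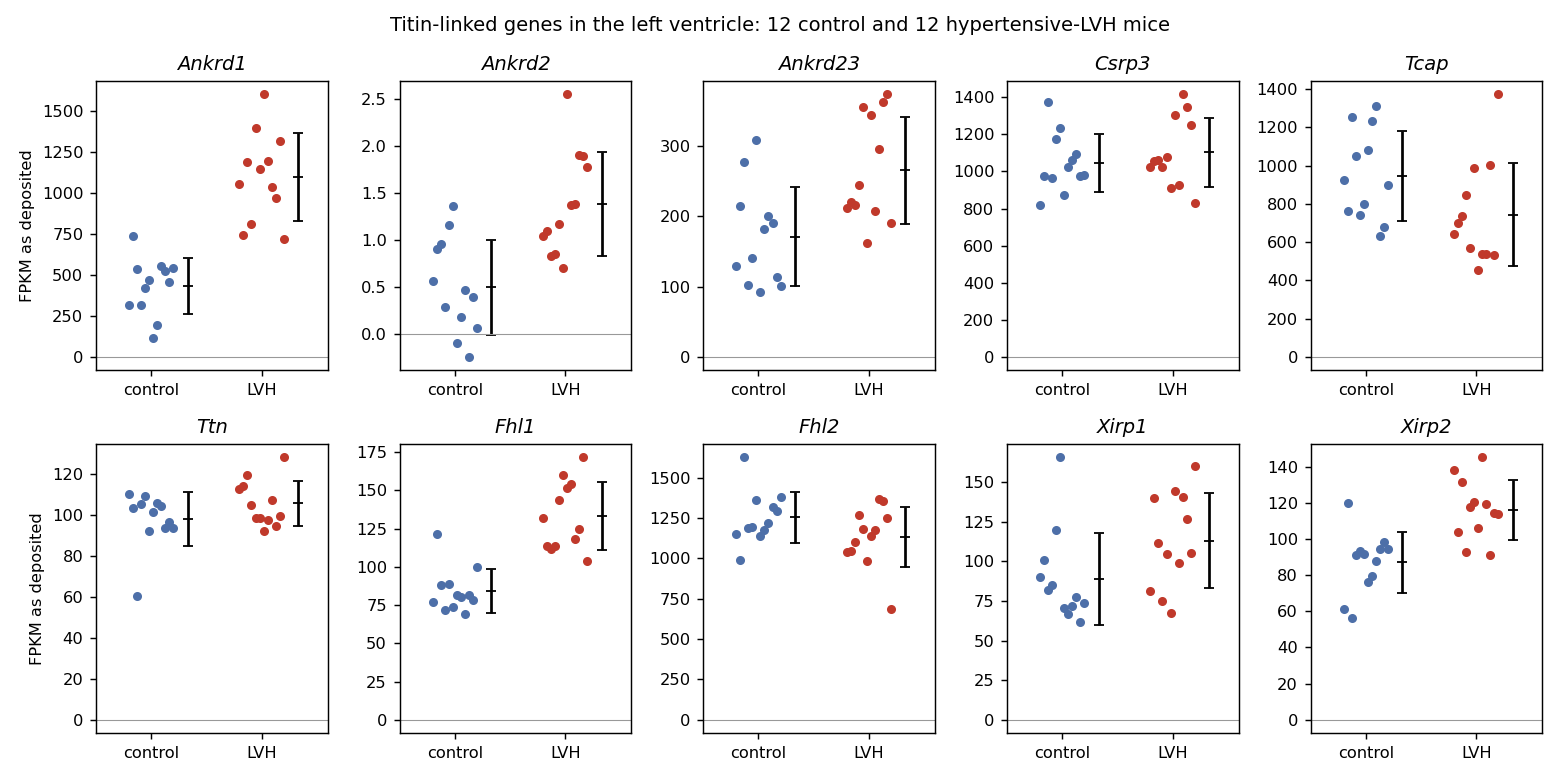
FPKM as deposited (vertical axis, linear, 1 panel per gene) in each of the 12 control mice (blue) and the 12 hypertensive-LVH mice (red), with the mean and SD in black beside the points. For Ankrd1, 11 of the 12 hypertensive-LVH samples lie above all control samples, whereas the points of Csrp3 cover nearly the same range in both groups.

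The 3 muscle ankyrin repeat genes all rose. Ankrd1 encodes a cardiac protein that binds titin and also enters the nucleus, where it acts on transcription (chromosome 19 from 36111961 to 36120099, minus strand, GENCODE vM21 on GRCm38). Control samples ran from 117 to 737 FPKM (median 464) and hypertensive-LVH samples from 721 to 1604 FPKM (median 1103). Every hypertensive-LVH sample lay above the control median, which 7.42% of all genes tested showed, and a single control sample reached into the range of the other group. The mean was 1099.9 ± 268 (SD, n = 12) against 433 ± 172 (SD, n = 12), a ratio of 2.54. The log2 fold change was 1.44 (standard error 0.222, 95% interval 0.99 to 1.90, adjusted p = 3.74e-05 from limma).

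Ankrd23, the diabetes-related member of the family, lies on chromosome 1 from 36530188 to 36536883 (minus strand). Its values were 92.3 to 308 FPKM (median 161) in control mice and 162 to 373.5 FPKM (median 233) in hypertensive-LVH mice. The groups overlapped widely, with 4 hypertensive-LVH samples above all control samples, although all 12 lay above the control median. The fit gave a log2 fold change of 0.68 (standard error 0.193, 95% interval 0.29 to 1.08, adjusted p = 0.00881 from limma). The call was lost without samples 7 to 9 of each group (log2 fold change 0.62, adjusted p = 0.0514 from limma) and without samples 10 to 12 (0.52, adjusted p = 0.0841 from limma). Ankrd23 shares 2109 exonic bases on the same strand with the gene model Gm42417, so its reads could have been divided between them.

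Ankrd2 is the family member of skeletal muscle, and its level in these ventricles was low (chromosome 19 from 42036000 to 42045110, plus strand). With saline it lay between -0.244 and 1.36 FPKM (median 0.430), and with ANG II between 0.697 and 2.55 FPKM (median 1.27). Of the hypertensive-LVH samples, 6 lay above all control samples and 12 above the control median. The log2 fold change of FPKM + 1 was 0.67 (standard error 0.147, 95% interval 0.36 to 0.97, adjusted p = 0.00135 from limma), a scale that understates changes at levels this low. With a pseudocount of 0.1 the value was 1.64 (adjusted p = 0.00293 from limma). Both values include 2 negative control values set to 0. On the scale of FPKM + 1, leaving out samples 7 to 9 of each group gave 0.50 (adjusted p = 0.0337 from limma). Leaving out samples 10 to 12 gave 0.45 (adjusted p = 0.0486 from limma). Beside it, 18 skeletal muscle markers were listed, of which 14 were in the expression table, and Myh1, Myh2 and Myh4 were not. The summed FPKM of these 14 was 32.5 to 71.9 (median 49.0) in control mice and 42.8 to 72.9 (median 61.9) in hypertensive-LVH mice. The largest change in mean among the 14 was that of Mybpc2, and the difference in the sum mostly follows that gene. Of the 13 that could be tested, 3 rose, namely Mybpc2 (9.15 to 22.1 FPKM, control and hypertensive-LVH means), Tnnt3 (0.913 to 2.83 FPKM) and Tnni1 (0.294 to 0.641 FPKM). Another 4 fell, namely Cacna1s, Tnni2, Tnnt1 and Mylpf. Over all genes tested, 20.9% rose and 12.6% fell. The fast troponin gene Tnnc2 was at 0 in 5 samples. Their part in the result was not tested.

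Of the LIM-domain genes, Fhl1 rose, and Fhl2 and Csrp3 did not pass the test. Fhl1, a LIM-only protein that binds the titin spring, had the lowest p of the members (chromosome X from 56731787 to 56793346, plus strand). Control samples ran from 69.0 to 122 FPKM (median 81.0) and hypertensive-LVH samples from 104 to 172 FPKM (median 128). All but 1 control sample lay below every hypertensive-LVH sample, and 7 hypertensive-LVH samples lay above every control sample. The mean was 133 ± 22.3 (SD, n = 12) against 84.4 ± 14.5 (SD, n = 12), and the log2 fold change was 0.65 (standard error 0.0896, 95% interval 0.47 to 0.84, adjusted p = 1.11e-05 from limma).

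Fhl2, its relative that is most abundant in heart, is also a partner of titin and of several transcription factors (chromosome 1 from 43123074 to 43196984, minus strand). Its values were 992 to 1628 FPKM (median 1206) in control mice and 688 to 1365 FPKM (median 1158) in hypertensive-LVH mice. The ranges overlapped, with 2 hypertensive-LVH samples below every control sample, and 4 hypertensive-LVH samples lay above the control median. A log2 fold change of -0.16 did not pass the test (95% interval -0.34 to 0.03, adjusted p = 0.184 from limma), and its sign turned with quantile normalization (0.03) and with scaling by cardiomyocyte markers (0.04).

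Csrp3, the muscle LIM protein of the Z-disc, lies on chromosome 7 from 48830398 to 48848033 (minus strand). With saline it lay between 820.4 and 1375 FPKM (median 1002), and with ANG II between 832 and 1416 FPKM (median 1057). These ranges nearly coincided. The log2 fold change of 0.07 had a 95% interval of -0.11 to 0.26 (adjusted p = 0.563 from limma). Quantile normalization between samples gave 0.27 and an adjusted p of 6.58e-04 from limma, and without samples 7 to 9 of each group the sign turned (-7.41e-05).

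**Figure D2:**
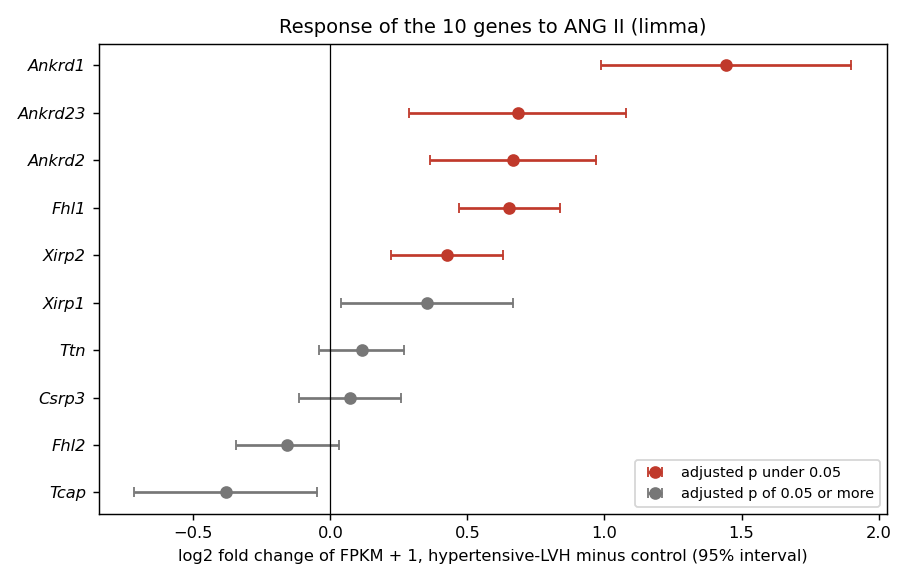
Log2 fold change of FPKM + 1 (horizontal axis, hypertensive-LVH minus control, limma) of each gene with its 95% interval, ordered by size. Red points passed the adjusted p of 0.05, from Xirp2 at 0.43 to Ankrd1 at 1.44, and grey points did not, with Tcap lowest at -0.38.

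Titin itself and its Z-disc cap did not pass the test. Ttn (chromosome 2 from 76703980 to 76982547, minus strand, 347 exons in its longest coding transcript) lay between 60.4 and 110.3 FPKM (median 103) in control mice, of which 1 lay well below the rest. Hypertensive-LVH mice lay between 92.0 and 128 FPKM (median 102). Its fold change on the log2 scale was 0.11 (95% interval -0.04 to 0.27, adjusted p = 0.244 from limma). Leaving out the low control, sample 3, gave 0.05, and leaving out samples 1 to 3 in both groups gave 0.03. Scaling by cardiomyocyte markers gave 0.31 (adjusted p = 0.00854 from limma). The table gives 1 value per gene, so it holds no information on which isoforms of the spring were present.

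Tcap (telethonin), which joins the ends of titin at the Z-disc, was the member with the most negative fold change (chromosome 11 from 98383811 to 98384953, plus strand, 2 exons). Control samples ran from 635 to 1310.3 FPKM (median 912) and hypertensive-LVH samples from 455 to 1373 FPKM (median 670.2). Of the hypertensive-LVH samples, 5 lay below every control sample, and 1 lay above every control sample. The log2 fold change was -0.38 (standard error 0.162, 95% interval -0.72 to -0.05, adjusted p = 0.0695 from limma). The value depended on the sets. Leaving out samples 7 to 9 gave -0.10 (adjusted p = 0.68 from limma), and scaling by cardiomyocyte markers gave -0.18 (adjusted p = 0.363 from limma). It passed without samples 10 to 12 of each group (-0.61, adjusted p = 0.00626 from limma), with median-ratio scaling (-0.43, adjusted p = 0.0423 from limma), and without hypertensive-LVH sample 10 (-0.43), hypertensive-LVH sample 12 (-0.47) or control sample 10 (-0.43).

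Of the Xin genes, Xirp2 rose and Xirp1 did not pass the test. Xirp2 (chromosome 2 from 67446002 to 67526614, plus strand) lay between 56.5 and 120.0 FPKM (median 91.5) in control mice and between 90.9 and 145 FPKM (median 116) in hypertensive-LVH mice. All but 1 of the hypertensive-LVH samples lay above the control median and 4 lay above every control sample. The increase on the log2 scale was 0.43 (standard error 0.0989, 95% interval 0.22 to 0.63, adjusted p = 0.0021 from limma). Exons of Xirp2 and Ttn overlap antisense gene models by 168 and 453 bases, and whether reads were counted by strand is not given in the sources used here.

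Xirp1 (chromosome 9 from 120013755 to 120023598, minus strand) lay between 61.5 and 166 FPKM (median 80.0) in control mice and between 67.2 and 160.5 FPKM (median 109) in hypertensive-LVH mice. A control sample was the highest of all 24. Its fold change on the log2 scale was 0.35 (standard error 0.152, 95% interval 0.04 to 0.67, adjusted p = 0.0764 from limma). Leaving out samples 7 to 9 gave 0.19 (adjusted p = 0.447 from limma) and leaving out samples 10 to 12 gave 0.18 (adjusted p = 0.467 from limma). The gene passed without samples 4 to 6 of each group (0.65, adjusted p = 9.30e-04 from limma), with scaling by cardiomyocyte markers (0.55, adjusted p = 0.00284 from limma), and likewise without hypertensive-LVH sample 4 (0.40), hypertensive-LVH sample 6 (0.41) or control sample 6 (0.44).

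FPKM is scaled by transcript length, which puts different genes on 1 scale. The adjustment, however, had apparently rescaled each gene in each set (recovered factors from 0.63 for Xirp1 to 1.81 for Ttn among the members). The order of levels given here is therefore that of the deposited values. In the control group the order of mean FPKM was Fhl2, Csrp3, Tcap, Ankrd1, Ankrd23, Ttn, Xirp1, Xirp2, Fhl1 and Ankrd2. In the hypertensive-LVH group it was Fhl2, Csrp3, Ankrd1, Tcap, Ankrd23, Fhl1, Xirp2, Xirp1, Ttn and Ankrd2. Ankrd1 thus stood below Tcap in all 12 control samples and above it in 9 of the 12 hypertensive-LVH samples. The neighbours were picked by the order of these same values, so the paired tests run on them are not given. In the hypertensive-LVH group several neighbours changed places between samples. Fhl2 lay above Csrp3 in 8 of the 12 samples, Csrp3 above Ankrd1 in 5 and Fhl1 above Xirp2 in 8. Xirp2 lay above Xirp1 in 7 and Xirp1 above Ttn in 8. In the control group Csrp3 lay above Tcap in 7 of the 12 samples and Ttn above Xirp1 in 9. Xirp1 lay above Xirp2 in 4 and Xirp2 above Fhl1 in 6.

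Ratios between related members within each sample are given as a description for 5 pairs. The pairs were chosen after the values were seen, so the permutation tests run on them are not given. The ratio of Fhl1 to Fhl2 was 0.119 in the hypertensive-LVH group and 0.0677 in the control group (geometric means, FPKM + 1), a log2 difference of 0.81, and it lay above the control median in 12 of 12 hypertensive-LVH samples. Ankrd1 to Ankrd23 stood at 4.18 against 2.47 (log2 difference 0.76), higher in 3 of the 4 sets. Tcap to Ttn stood at 6.67 against 9.40 (log2 difference -0.50), with 3 of 12 hypertensive-LVH samples above the control median. For Tcap to Csrp3 the log2 difference was -0.45 and for Xirp1 to Xirp2 it was -0.07.

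The response was read separately in the 4 sets of samples, each of 3 mice per group, since the deposited values had apparently been adjusted by set. Ankrd1 was higher in every set, with log2 differences of 0.97, 1.46, 2.42 and 0.93, and its groups did not overlap in any set. Fhl1 was also higher in every set (0.34, 0.82, 0.86 and 0.60), as was Xirp2 (0.72, 0.25, 0.59 and 0.14). Ankrd23 was higher by 0.13, 0.55, 0.88 and 1.18. The groups did not overlap for 3, 2, 7 and 4 of the 10 members in the 4 sets in order, against 16.8%, 47.5%, 27.0% and 21.0% of all genes tested. With labels exchanged only within the sets (all 160000 relabelings, exact permutation test, two-sided), p was 1.25e-05 for Ankrd1, 6.25e-05 for Fhl1, 7e-04 for Xirp2, 0.00161 for Ankrd2 and 0.00698 for Ankrd23. The other members had p from 0.052 (Tcap) to 0.473 (Csrp3) by the same exact permutation test. The recovery of earlier values given below assumes that the adjustment used the groups, keeping their difference. Neither these tests nor the limma fit accounts for such use, so their p-values may be too small.

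**Figure D3:**
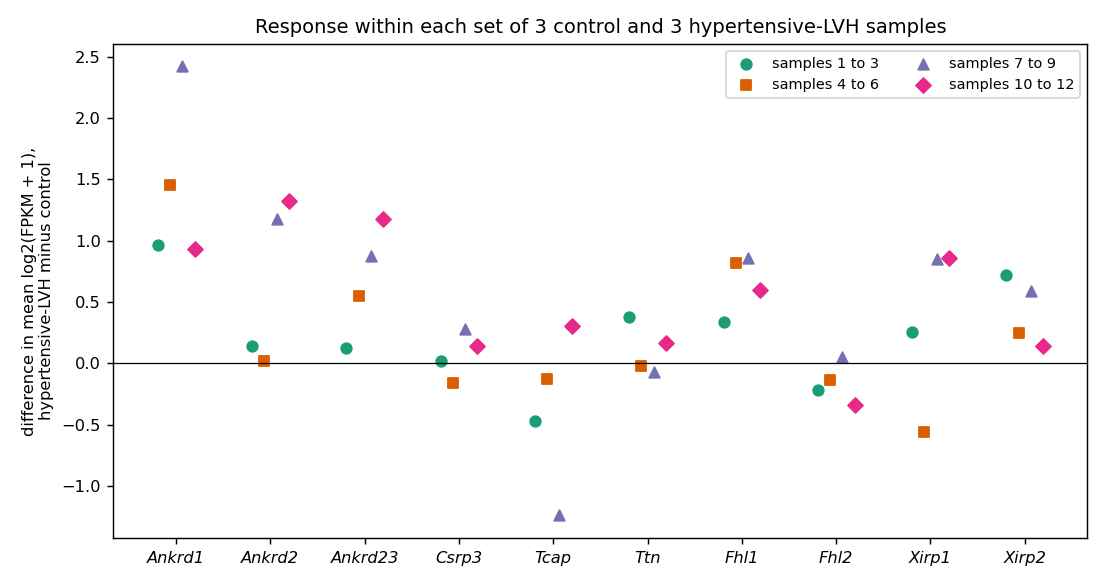
Difference in mean log2(FPKM + 1) between 3 hypertensive-LVH and 3 control samples (vertical axis) for each gene within each of the 4 sets of samples (symbols). All 4 symbols of Ankrd1, Ankrd23, Fhl1, Xirp2 and Ankrd2 lie above 0, whereas those of Tcap run from -1.24 to 0.31 and those of Xirp1 from -0.56 to 0.86.

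A group-by-set interaction, fitted with limma over all genes, passed for 2 members, Ankrd2 (adjusted p = 0.00703) and Xirp1 (adjusted p = 0.0181), against 7.49% of all genes. Ankrd2 was at 0.991 and 0.808 FPKM (hypertensive-LVH and control means of 3) in samples 1 to 3 and at 0.907 and 0.933 FPKM in samples 4 to 6. In samples 7 to 9 the means were 1.77 and 0.185 FPKM, and in samples 10 to 12 they were 1.86 and 0.0712 FPKM. Its groups overlapped in samples 1 to 6 and did not overlap in samples 7 to 9 or 10 to 12. Control samples 7 and 10 held its 2 negative values, which were set to 0 for the fit. Xirp1 was higher in the hypertensive-LVH samples of the same 6 numbers (128 against 69.8 FPKM in samples 7 to 9, 131 against 71.0 FPKM in samples 10 to 12). In samples 4 to 6 it was lower, at 82.4 against 124 FPKM. Tcap was lower without overlap in samples 1 to 3 (693 against 979 FPKM) and 7 to 9 (512 against 1208 FPKM) and higher in samples 10 to 12 (969 against 738 FPKM), but its interaction did not pass (adjusted p = 0.0501 from limma, and 0.0458 with a pseudocount of 0.1).

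**Figure D4:**
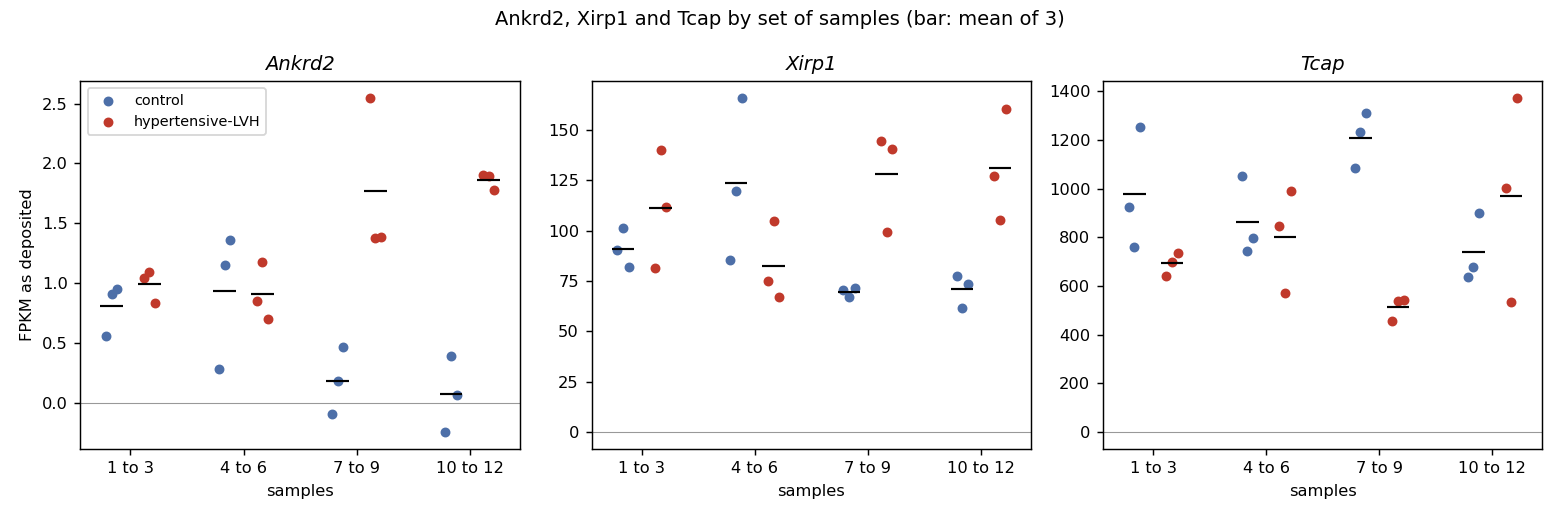
FPKM as deposited (vertical axis, linear) of Ankrd2, Xirp1 and Tcap in the 3 control (blue) and 3 hypertensive-LVH samples (red) of each set, with the mean of 3 as a bar. The red and blue points of Ankrd2 and Xirp1 separate in samples 7 to 12, and Tcap is lower in the hypertensive-LVH samples 7 to 9 and higher on average in samples 10 to 12.

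Differences before the adjustment were recovered from the spacing of the values for all 10 members, under an assumed form of the adjustment that was not itself tested. In FPKM, hypertensive-LVH minus control, Ankrd1 was apart by 373, 723, 966 and 499 in the sets as numbered, and its groups overlapped in samples 1 to 3 on these values. Fhl1 differed by 13.5, 60.0, 59.3 and 46.2, and Xirp2 by 43.4, 27.5, 57.3 and 21.1. The exact permutation p within sets on the recovered values was 5e-05 for Ankrd1, 1.62e-04 for Xirp2, 2.75e-04 for Fhl1, 0.00505 for Ankrd2 and 0.0256 for Ankrd23. Xirp1 differed by 20.3, -72.3, 45.01 and 58.8 (exact permutation test within sets, p = 0.447). Fhl2 was lower in all 4 sets before the adjustment (exact permutation test within sets, p = 0.12), and Tcap differed by -299, -68.9, -768 and 337 (exact permutation test within sets, p = 0.141).

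Whether members varied together between mice of 1 group and set was examined for all 45 pairs after the means of each group and set were removed. A single pair passed, Ankrd23 and Csrp3 (Pearson's r = 0.798, permutation p = 4e-05, adjusted p = 0.0018; Spearman's rho = 0.837, permutation p = 4e-05, adjusted p = 0.0018; 24 samples). Without the 2 samples farthest from the median, r was 0.824. Between the groups, Ankrd23 rose and Csrp3 did not pass the test. For Fhl1, the member with the lowest p, the genes most alike among 14025, by the same residuals over 24 samples, were Trim46 (r = 0.904), Src (r = 0.892) and Anpep (r = 0.891), given as a description.

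Partners of these proteins were read from lists written by hand, with the members left out. Of 32 partners at the Z-disc and I-band, 16 rose and 2 fell (33.5% of all genes tested changed in either direction), and their median log2 fold change was 0.20. The largest changes were those of Pdlim3, a Z-disc LIM protein (13.6 ± 5.37 to 29.0 ± 7.49 FPKM, SD, n = 12 each, log2 fold change 1.12), Actn1, a non-muscle actinin (0.82), and Kcne1, a potassium channel subunit that binds telethonin (0.78). Against them, Lmod3, an actin nucleator of muscle (-0.34), and Ldb3, the Z-disc protein Cypher (-0.20), fell.

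Of 18 other LIM and ankyrin repeat relatives, 6 rose and 1 fell (median 0.17), when 33.5% of all genes tested changed in either direction. Csrp2, the paralog of Csrp3 found in smooth muscle, rose from 18.2 ± 9.10 to 44.3 ± 17.1 FPKM (SD, n = 12 each, log2 fold change 1.40), Zyx (zyxin, a focal adhesion protein) rose by a log2 fold change of 0.71 and Csrp1 by 0.55, while Crip2 fell (-0.36). Beside Csrp2, the summed FPKM of 12 smooth muscle and pericyte markers was 1521 to 1745 in control mice and 1912 to 2526 in hypertensive-LVH mice, without overlap. That sum includes the desmin gene Des, also among the Z-disc partners, at a mean log2(FPKM + 1) of 10.7 in hypertensive-LVH and 10.2 in control mice. The next highest of the 12, Rgs5, was at 7.30 and 7.20, so the sum mostly follows Des. Of these 12, 4 rose (Tagln, Cnn1, Cspg4 and Des) and 2 fell (Kcnj8 and Abcc9), against 20.9% and 12.6% of all genes tested. The smooth muscle genes Myh11 (0.22), Acta2 (0.23) and Smtn (-0.08) did not pass. Their part in the result was not tested.

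Of 22 partners of the Xin proteins at the intercalated disc and costamere, 8 rose and none fell in the limma fit (median 0.14). Among all genes tested, 20.9% rose, 12.6% fell and 33.5% changed in either direction. A rank-sum test gave 10 partners higher and 0 lower, against 2476 and 1649 of 14026 genes. At an unadjusted p under 0.05, 13 were higher and 2 lower, and the share of all genes at that threshold was not computed. Without samples 4 to 6 of each group, 5 of these partners rose and 1 fell, while calls over all genes went from 4697 to 2802. The largest increases were those of the actin regulators Enah (0.49), Cttn (0.30) and Vasp (0.30). Of 21 partners at the M-band and the titin kinase, 5 rose and 4 fell (median -0.03), against 20.9% and 12.6% of all genes tested. Without samples 4 to 6 of each group 6 rose and 2 fell, against 1173 and 1629 of all 14026 genes tested. Ank1 (ankyrin 1, -0.36), the myosin light chain kinase Mylk3 (-0.26) and the myosin chaperone Unc45b (-0.26) fell, and the chaperone gene Hsp90aa1 (0.35) and the autophagy receptor Sqstm1 (0.30) rose.

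The 20 tested readout genes of YAP and TAZ, coactivators of the TEAD factors, held 9 that rose and 4 that fell (median 0.17). Over all genes tested, 20.9% rose and 12.6% fell. Ctgf (1.63, with 1 negative control value set to 0) and Cyr61 (0.90) rose, and Gadd45a (-0.80), F3 (-0.26) and Arhgef17 (-0.23) fell. Without samples 4 to 6 of each group, 5 rose and 3 fell, while calls over all genes went from 4697 to 2802. Of 12 hypertrophy markers, 6 rose and 2 fell (median 1.00), beside the same shares of all genes. The increases of Nppa (6.96) and Myh7 (3.36) rest on 7 and 3 negative control values set to 0, and Acta1 rose by 1.96. The calcium pump gene Atp2a2 (-0.33) and its inhibitor Pln (-0.32) fell.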

How the data were processed

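Left ventricles of 12 hypertensive-LVH and 12 control mice were analysed. Per the study's methods each sample is a biological replicate, and further samples it describes were not analysed here. The authors enriched mRNA with oligo(dT) beads, sequenced it and deposited FPKM values per gene symbol. The labels list Bowtie2, HISAT and RSEM, and versions, genome build and annotation are not given in the sources used here. One label text names another kind of cell as the source of the RNA, and the tissue labels were followed.

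The deposited values were not plain FPKM, because 0.766% were negative. Exact ties (218 to 546 genes per pair within a set, at most 12 between sets) joined the samples into 4 sets, read as sets adjusted separately. Negative values were set to 0 for log2(FPKM + 1), with a pseudocount of 1, and kept in printed levels, which are as deposited. Differences before the adjustment were solved from the spacing of the values, in steps of 0.01 FPKM. All 10 members had a single solution, and the method was tested on simulated data. Negative values and unknown depth limit the precision at low levels.

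Genes were fitted with limma 3.58.1 (R 4.3.3, trend set), p-values were adjusted by Benjamini-Hochberg over 14026 genes, and the fit was tested on simulated data. Exact tests within sets and permutation tests (100000 resamples) used Python 3.11.15, scipy 1.17.1, numpy 2.4.6 and pandas 2.3.3 and were two-sided. Gene positions are from GENCODE vM21 and promoters from RefSeq. Protein sequences were not compared.

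The members, gene lists and tests were chosen with earlier results of these data known. All 10 members are named. From each list the 3 genes with the largest absolute change past the test, and up to 2 against the direction of most of the list, are named. For the member with the lowest p, the 3 genes most correlated with it are named. Marker genes beyond the sums were chosen after their values were seen. Alternatives were another pseudocount, filter, scaling, trend, rank test, a replicate block, the set as a term, the values before adjustment, and leaving out sets or single mice.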

Additional observations from a re-analysis of the deposited data

Results flagged for a closer look

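The response of Ankrd2 to ANG II differed between the 4 sets of samples (limma group-by-set interaction, adjusted p = 0.007034). This gene lay near the floor, with no value above 2.55 FPKM and 2 negative control values, in samples 7 and 10, set to 0. Its log2 differences were 0.14, 0.02, 1.18 and 1.33 in samples 1 to 3, 4 to 6, 7 to 9 and 10 to 12, and before the adjustment by set its FPKM differed by 0.137, -0.227, 1.62 and 1.88.

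The response of Xirp1 also differed between the sets (limma group-by-set interaction, adjusted p = 0.01807), with log2 differences of 0.25, -0.56, 0.85 and 0.86. Whether the sets differed in the mice, the libraries or the adjustment was not tested.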

How the results depend on the processing

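Over 38 alternatives, Ankrd1, Fhl1 and Xirp2 passed in each, as did Ankrd2 in the 37 in which it was tested (its mean is under 1 FPKM). Ankrd23 passed in 36. Scaling by cardiomyocyte markers gave 8 members higher, adding Csrp3, Ttn and Xirp1. This scaling shifted the middle fold change over all genes tested from 0.05 to 0.20 (log2), and the fold changes of these 3 (0.27, 0.31 and 0.55) are to be read against that shift. The count of members lower was 1 (Tcap) with median-ratio scaling and 1 without samples 10 to 12 of each group. Leaving out single mice gave 5 to 6 members higher and 0 to 1 lower. The sign turned for Csrp3 without samples 7 to 9 (-7.41e-05). It also turned for Fhl2 with quantile normalization (0.0302) and with cardiomyocyte marker scaling (0.0426). With group means alone removed, 6 pairs of members were correlated, against 1. Without samples 4 to 6, 8 YAP and TAZ readout genes passed, against 13, while calls over all genes went from 4697 to 2802. The cause was not tested for any of these.

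Over all genes, 2928 rose and 1769 fell, against 1930 and 2916 with quantile normalization, 2397 and 2235 with median-ratio scaling, 7051 and 579 with cardiomyocyte marker scaling, and 1173 and 1629 without samples 4 to 6. Whether the replicate numbers paired the mice cannot be read from these values. The deviations of same-numbered samples correlated from -0.557 to -0.00109 (0 of 12 over 0.1, and 0 samples best with their own number). Adjustment within sets that hold the same numbers in both groups can itself make such correlations negative. With the replicate block, 5 members rose and 2824 genes were called, against 4697. The alignment of protein sequences was not run. Depth is unknown.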

Other observations

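Marker genes of other cell types in the same ventricles give the setting of these values. Over all genes tested, 20.9% rose and 12.6% fell. All 10 macrophage markers rose (median log2 fold change 0.63), as did 5 of 7 red blood cell genes (1.63) and 6 of 12 fibroblast genes (0.45), of which 1 fell. The summed FPKM of the macrophage markers was 272 to 617 in control mice and 354 to 1080.2 in hypertensive-LVH mice, with overlap. Of 10 endothelial markers, 2 rose and 1 fell (0.01). Of 8 atrial myocyte markers, 1 fell and none rose in the limma fit (0 higher at an unadjusted p under 0.05 and 0 by a rank-sum test). Their median log2 fold change was 0.59, with 6 of the 8 above 0. The summed FPKM of these 8 varied widely within each group, from 218 to 4088 in control mice and from 259 to 3123 in hypertensive-LVH mice. The part of these cells in the members' values was not tested.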
